A study of Mus musculus with 21 samples.

Results

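The comparison covers H3K4me1 in formative mouse embryonic stem cells of a floxed MLL3-null line against formative wild-type cells, taken region by region. It rests on 4 H3K4me1 libraries of the 21 samples of the series, 2 of the floxed line and 2 of wild type, and on all 186824 regions for which a level is given. The assay was CUT&RUN, a method that releases DNA around an antibody-bound mark with a tethered nuclease. The floxed line (MLL3KO_MLL4fl) lacks MLL3 and carries floxed MLL4 alleles, and the wild type (WT) is the R1 line. All 4 libraries came from cells collected 63 h after LIF and 2i were withdrawn, the formative state. The same genotypes in the naive state, and cells without either enzyme (MLL3KO_MLL4KO, here DKO) or with CD alleles of both (MLL3CD_MLL4CD, here dCD), serve as comparisons. WT and dCD are labelled R1, whereas the floxed line and DKO carry no line label, so the effect of MLL3 loss and that of line of origin cannot be told apart. Fields of the labels disagree on the antibody, and the mark is named here as labelled.

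Kmt2c encodes MLL3 and Kmt2d encodes MLL4, large methyltransferases known for H3K4 monomethylation of enhancers, where the mark accompanies both primed and active elements. They share a core complex with WDR5, RBBP5, ASH2L and DPY30, and MLL4 is generally held to carry much of the enhancer activity in embryonic stem cells. Formative cells have left the naive ground state and are competent to enter the germ layers, with enhancers of genes such as Fgf5 and Otx2 in use.

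The deposited values are 1 log2 level per group and region, with the 2 libraries of a group pooled. No spread between replicates can be computed from them, so no difference below carries a test or an error over libraries, and differences are described by size. A difference is floxed minus WT on the log2 scale unless another is named, and a region was counted at 2-fold or more. Levels were also converted back to normalized reads, which summed over all regions to 1.16e+07 in formative floxed and 1.21e+07 in formative WT cells. Fewer cells with the mark and less mark per cell cannot be told apart in such bulk values. The median region held 35.0 reads in formative floxed and 37.7 in formative WT cells. The marker loci Fgf5 and Zfp42 followed the labelled state. Fgf5, a growth factor gene of the formative state, held 1067 reads in formative floxed and 1165 in formative WT cells, and 424.1 in naive floxed and 418.6 in naive WT cells. Zfp42, a naive marker, held 668.9 reads in formative floxed and 880.4 in formative WT cells, and 1558 in naive floxed and 1815 in naive WT cells.

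A few sequences show the regions on which the results turn. They are 200 bases of GRCm38 from RefSeq, 5′ to 3′, at the centre of the region with CpG dinucleotides in capitals, or, for L1, around a repeated 30-base sequence in capitals. Among regions with at least 32 reads in formative floxed or WT cells, Nucb2 names the lowest difference and Elobl and Shc3 the highest. Pon2 names a region that was also low in dCD, and Kmt2c the intronic region of the deleted gene. L1 is a copy of the repeat whose regions had a formative median below 0 on every chromosome.
Nucb2 chr7:116825066-116825265 plus strand: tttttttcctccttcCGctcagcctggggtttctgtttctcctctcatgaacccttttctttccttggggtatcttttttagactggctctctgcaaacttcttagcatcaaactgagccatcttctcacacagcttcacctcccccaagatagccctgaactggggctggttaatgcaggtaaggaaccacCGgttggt
Pon2 chr6:5332726-5332925 plus strand: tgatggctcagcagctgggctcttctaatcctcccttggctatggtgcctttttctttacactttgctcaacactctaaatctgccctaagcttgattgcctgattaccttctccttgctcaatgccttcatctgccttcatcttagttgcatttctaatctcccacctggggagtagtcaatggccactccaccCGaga
Elobl chr11:88968738-88968937 plus strand: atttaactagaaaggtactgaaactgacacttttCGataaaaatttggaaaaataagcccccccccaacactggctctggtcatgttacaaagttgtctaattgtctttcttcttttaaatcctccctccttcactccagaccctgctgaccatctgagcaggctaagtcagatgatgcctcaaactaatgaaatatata
Shc3 chr13:51574202-51574401 plus strand: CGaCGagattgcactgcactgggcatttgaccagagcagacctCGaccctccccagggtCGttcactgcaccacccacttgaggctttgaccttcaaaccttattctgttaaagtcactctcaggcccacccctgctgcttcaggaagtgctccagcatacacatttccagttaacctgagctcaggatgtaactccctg
Kmt2c chr5:25383342-25383541 plus strand: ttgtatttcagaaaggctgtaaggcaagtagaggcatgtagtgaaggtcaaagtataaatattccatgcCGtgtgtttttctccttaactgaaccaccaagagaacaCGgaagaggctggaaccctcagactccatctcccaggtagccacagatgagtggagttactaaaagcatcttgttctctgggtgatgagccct
L1 chr2:22002176-22002375 plus strand: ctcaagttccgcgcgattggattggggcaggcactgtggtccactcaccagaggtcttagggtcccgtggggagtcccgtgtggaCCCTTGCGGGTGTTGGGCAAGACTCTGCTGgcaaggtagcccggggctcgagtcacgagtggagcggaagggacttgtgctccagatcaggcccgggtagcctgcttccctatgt

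Most regions differed little between formative floxed and WT cells. The median difference was −0.09, 78.0% of regions lay within 0.5 of 0, and the central 90% ran between −0.91 and 0.51. At 2-fold or more, 7148 regions were lower in the floxed line, 3.83% of all, and 982 were higher, 0.526%. Lower regions made up 87.9% of those past 2-fold. That share depends on the scaling, since centring each column on its median adds 0.15 to every difference and gives 4740 lower and 1963 higher regions, 70.7% lower. Regions with few reads supplied most of the count: among the 114038 regions with at least 32 reads in the higher of the 2 columns, 2460 were lower (2.16%) and 374 higher (0.328%).

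Medians differed little by the position of a region relative to genes. Promoter regions had a median difference of 0.06 and 1.08% of 5992 were at least 2-fold lower. Introns had a median of −0.07 with 2.77% lower, exons −0.12 with 3.79%, and intergenic regions −0.12 with 5.32%. With centred columns the intron and intergenic medians were above 0, at 0.079 and 0.034, so their sign follows the scaling. Lower regions were more frequent with distance: 1.27% of regions within 1 kb of a start site were lower, 2.14% between 1 and 10 kb, 3.45% between 10 and 50 kb, 4.37% between 50 and 100 kb and 7.68% beyond 100 kb. Read number moved along with this, from 63.8 reads per region in floxed and 61.6 in WT cells within 1 kb to 27.7 and 31.7 beyond 100 kb, and its part in the result was not tested. With regions in 5 equal classes by mean reads in the other 6 groups, the lower share was 9.498% in the lowest class and 0.401% in the highest.

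**Figure D1:**
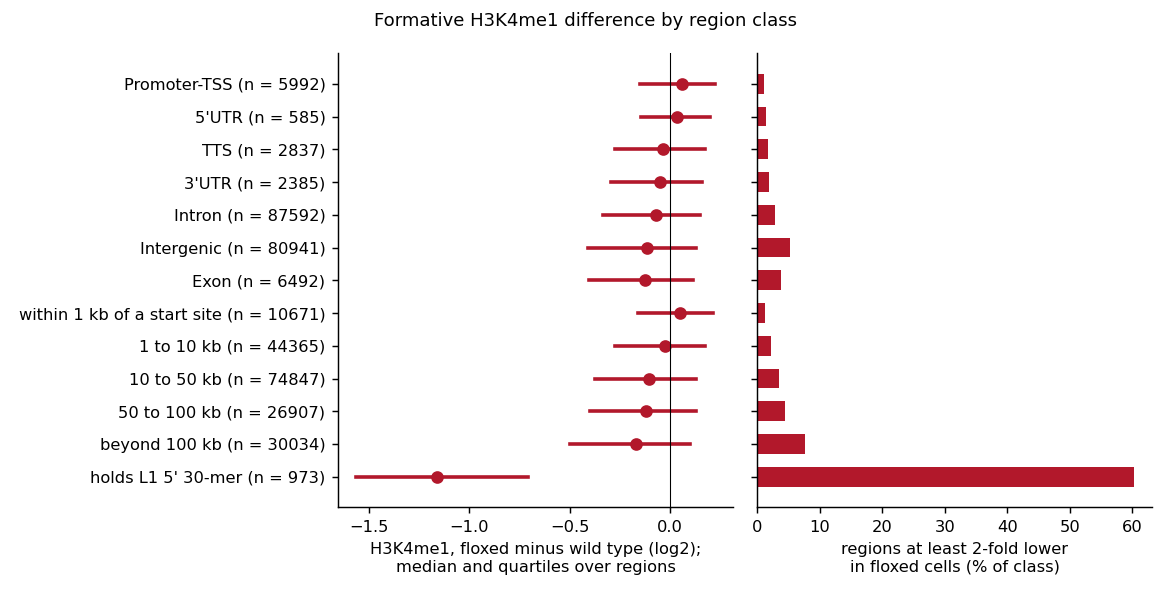
Formative H3K4me1 difference (floxed minus wild type, log2) by annotation, by distance to the nearest start site and for regions that hold the L1 5′ 30-mer. Points are medians and lines quartiles over regions, and bars give the percentage of each class at least 2-fold lower. The medians of the annotation and distance classes lie between −0.17 and 0.06, where centring would add 0.15 and turn some above 0, and that of the L1 regions at −1.16.

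Regions with less H3K4me1 in both naive mutants of MLL3 and MLL4 had about the same formative difference as stable regions. They were at least 2-fold lower both in naive DKO minus floxed and in naive dCD minus WT, from libraries other than the 4 compared here, and numbered 14681. Their median formative difference was −0.05, or 0.10 with centred columns, and 2.92% were at least 2-fold lower. Regions stable in both naive comparisons, within 0.5, numbered 59031 and had a median of −0.08 with 2.98% lower. In formative cells the regions lower in both naive mutants held a median of 32.4 reads in floxed, 17.04 in DKO, 17.4 in dCD and 33.9 in WT cells. The floxed line thus stood beside WT at these regions, with DKO and dCD both lower. The class itself required more mark in naive floxed than in naive DKO cells, and in naive WT than in naive dCD cells. Regions already low in naive floxed cells could rarely enter it. At least 2-fold lower in naive floxed minus WT were 1.27% of the class, against 1.44% of the stable regions and 4.38% of all regions. The formative order of the lines may carry over from that rule, which was not tested. Restricted to 6231 such regions beyond 1 kb of a start site with a mean of at least 32 reads in the other 6 groups, the median was −0.04 and 0.754% were lower. The 584 regions at least 2-fold higher in both naive mutants had a median of −0.32 in formative floxed minus WT, and 13.5% of them were lower. These regions held few reads, with medians of 19.4 in formative floxed and 25.2 in WT cells, and the 90 of them that met the same distance and read limits had a median of −0.13 with 10 lower.

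The loci of the enzymes themselves were examined although H3K4me1 there does not check the deletion. The table assigns 12 regions to Kmt2c and 4 to Kmt2d. An intronic Kmt2c region 115.3 kb from the start site (chr5:25382739-25384145) had 7.68 reads in formative floxed, 8.13 in DKO, 23.2 in dCD and 32.6 in WT cells, a difference of −2.03. In naive cells it had 17.4 reads in floxed, 15.5 in DKO, 22.1 in dCD and 32 in WT cells. Both lines without MLL3 were below both R1 lines there in each state. The other 11 Kmt2c regions differed by −0.82 to 0.48, and the Kmt2d regions by −0.57 to 0.42.

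Regions that hold a sequence assigned here to the 5′ part of a transposable element stood far below the rest. LINE-1 (L1) elements are autonomous retrotransposons whose 5′ end carries an internal promoter, and a subset of mouse L1 copies is transcribed in early embryos. Soft-masked repeats covered over 60% of 7426 regions, and the 30-base sequence found in the most of these, chosen without regard to levels, is the one in capitals in the L1 line above. It occurs 6448 times in the genome. In 93.2% of these copies an end of another common 30-base sequence lies within 3 kb, in the orientation with the most such copies. That other sequence was taken as the start of the L1 ORF1 coding sequence from prior knowledge, with no repeat annotation at hand. The placement in the 5′ part of L1 rests on this and was not tested. It was present in 973 regions (0.521% of all) on 21 chromosomes. Of the 973, 586 were at least 2-fold lower in formative floxed cells (60.2%), none was 2-fold higher, and 94.96% lay below 0, with a median of −1.16 and quartiles of −1.56 and −0.71. Regions without it had a median of −0.08 and 3.53% were lower. The 973 regions supplied 8.20% of the 7148 lower regions.

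The same L1 regions were lowest in the floxed line among the formative groups. Their median reads were 13.1 in formative floxed, 24.7 in DKO, 40.7 in dCD and 28.3 in WT cells. In naive cells the medians were 17.7 in floxed, 20.4 in DKO, 32.4 in dCD and 25.4 in WT cells. Each line without MLL3 was below the R1 line it is set against here: the median difference was −0.67 in naive floxed minus WT, −0.80 in formative DKO minus dCD and −0.81 in naive DKO minus dCD. DKO cells, which lack MLL4 as well, held more reads there than floxed cells in both states. A single copy shows the pattern: the region 222.6 kb from Myo3a, an unconventional myosin gene, holds the L1 sequence printed above (region chr2:22001399-22008409). It had 55.2 reads in formative floxed, 119 in DKO, 268.6 in dCD and 178.2 in WT cells, and 56.1, 86.6, 257 and 167.4 reads in the naive cells of the same lines in that order. Regions with a mean of at least 32 reads in the other 6 groups numbered 341 and had a median of −1.17, with 62.8% lower. How the authors placed reads that match several copies is not stated in the labels, and its part in this and the multicopy gene results was not tested.

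Other common repeat sequences had smaller differences. The sequence taken as the ORF1 start, and so assigned to the same element, had a median of −0.98 over 695 regions with 49.1% lower. Another 30-base sequence, common to 598 regions and not assigned to a family here, had a median of −0.89 with 43.8% lower. Both sets may include regions that also hold the L1 5′ sequence, and the overlap was not counted. A stretch found in 9307 regions had a median of −0.04 and 0.978% lower, and repeat-rich regions without any of the 8 most common sequences had a median of −0.32 with 13.7% lower. Among regions over 1 kb from a start site with at least 4 CpG per 100 bases, 29.6% were lower in formative floxed cells, and without the L1 5′ sequence 10.7%. A match to GCCNNNGGC, the AP-2 motif, on either strand of the central 300 bases was present in 13.8% of lower regions and 7.99% of all regions. Leaving out the L1 regions, 86.5% of which hold that motif, gave 7.04% of lower and 7.57% of all regions. The Grainyhead-like motif AACCNGTT was present in 5.33% of lower and 2.49% of all regions, and the octamer ATGCAAAT in 1.59% and 2.18%. Among regions with at most 60% repeats, 4.04% of those with AACCNGTT and 3.05% of those without it were lower.

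Chromosome 8 was lower as a whole. Its 11347 regions had a median difference of −0.35, and 819 of them were at least 2-fold lower (7.22%). The medians of the other 18 autosomes lay between −0.1306 (6) and −0.0005 (11). In bins of 10 Mb along chromosome 8 the median ran between −0.40 and −0.28, so the low level ran along the whole chromosome. The chromosome held 6.16% of formative floxed reads, 6.70% of DKO, 6.40% of dCD and 7.43% of WT reads, and in naive cells 6.26%, 6.79%, 6.50% and 8.22% in the same order of lines. WT cells held the largest share in both states. Without chromosome 8, 6329 regions were lower and 967 higher, with a median of −0.07. The X chromosome had a median of −0.12 over 2609 regions. The L1 regions did not follow the chromosome: over the 20 chromosomes with at least 10 of them, their medians lay between −1.44 (X) and −0.79 (19), and that of chromosome 8 was −1.22.

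**Figure D2:**
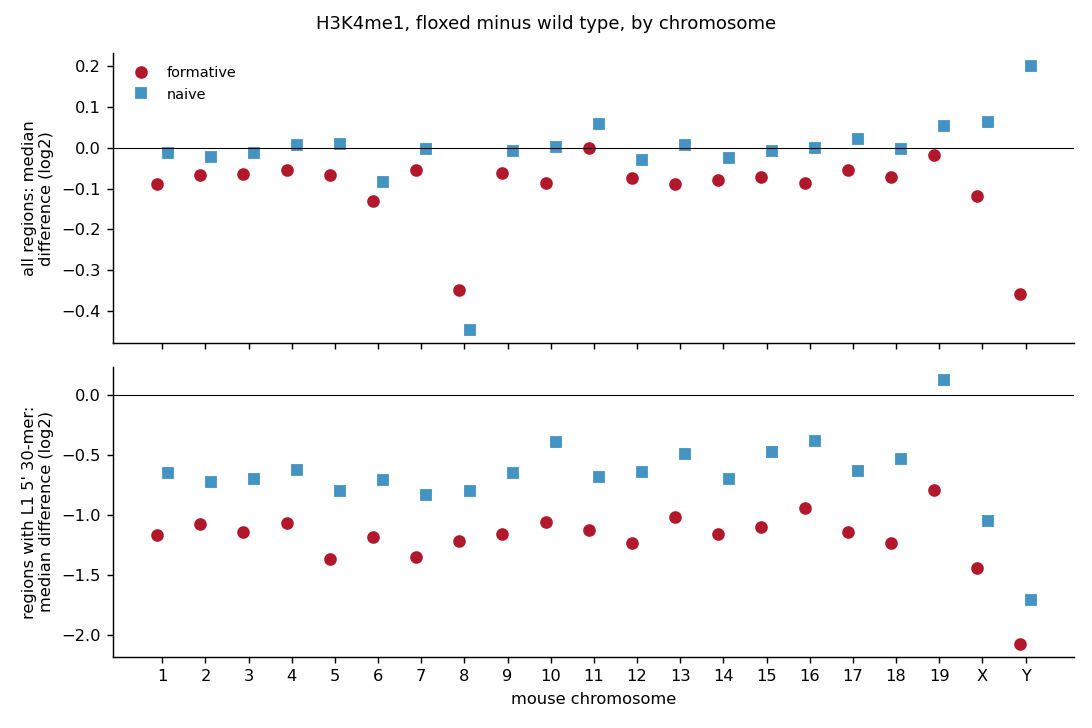
Median H3K4me1 difference (floxed minus wild type, log2) per mouse chromosome in formative (circles) and naive (squares) cells, over all regions (top) and over regions that hold the L1 5′ 30-mer (bottom). Chromosome 8 stands at −0.35 in formative and −0.45 in naive cells, while L1 regions are below 0 on every chromosome in formative cells. Y holds 32 regions in all and 1 L1 region.

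The formative differences were set beside comparisons that share no library with them. In naive floxed minus WT, 8183 regions were lower (4.38%) and 1614 higher (0.864%). In formative DKO minus dCD, 4491 were lower (2.4%) and 4390 higher (2.35%), and in naive DKO minus dCD, 4863 were lower (2.6%) and 2492 higher (1.33%). Chromosomes 14 and 17 were low in DKO minus dCD, with medians of −0.22 and −0.26 in formative and −0.28 and −0.29 in naive cells. The part of these chromosomes in the counts was not tested. Of the 7148 regions lower in formative floxed cells, 1959 (27.4%) were also lower in naive floxed cells, 1231 (17.2%) in formative DKO minus dCD and 1430 (20.0%) in naive DKO minus dCD. All 3 were lower in 505 (7.06%), against 594 of all regions (0.318%). Of the 982 higher regions, 100 (10.2%) were also higher in naive floxed cells, 146 (14.9%) in formative DKO minus dCD and 118 (12.0%) in naive DKO minus dCD. The lower direction was thus more frequent in each of these comparisons among the 7148 regions than over all regions. A line without MLL3 was set against an R1 line in each of them. Across 186824 regions, which are not independent replicates and share the lines and their depth, formative and naive differences correlated at r = 0.32, or 0.40 over 114038 regions with at least 32 reads.

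**Figure D3:**
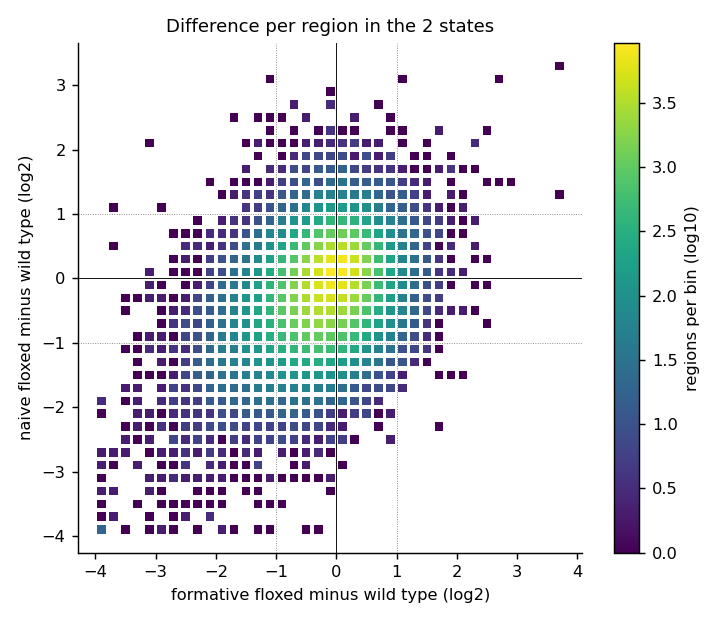
Formative (x axis) against naive (y axis) floxed-minus-wild-type difference per region, log2, in bins of 0.2 coloured by the number of regions on a log10 scale. Dotted lines mark 2-fold, and values beyond 4 are drawn in the outermost bins. A tail of regions lies low on both axes.

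Most of the 10 lowest differences with at least 32 reads lay in regions with few reads in both lines without MLL3. The ranking itself set formative floxed below WT, and the read minimum was met through WT. Among the formative groups only DKO and dCD lie outside that rule. A region 320.8 kb from Nucb2, the gene of nucleobindin 2 (chr7:116824468-116825864), had 0.749 reads in formative floxed, 0.696 in DKO, 51.7 in dCD and 36.9 in WT cells, a difference of −5.03. Naive cells had 0.775 reads in floxed, 3.24 in DKO, 66.6 in dCD and 46.1 in WT cells. Regions are named by their nearest gene, which can lie far away. The next were 272.4 kb from Gm10324 (−4.82), 141.5 kb from 2410141K09Rik (−4.76) and in an unnamed stretch (−3.87), all on chromosome 13. On chromosome 14 followed regions 246 kb from the olfactory receptor gene Olfr1507 (−3.82) and 11.4 kb from 1700128A07Rik (−3.75). An intronic region of 4933407K13Rik on X (−3.39) had 6.004 reads in formative floxed, 22.6 in DKO, 64.6 in dCD and 64.7 in WT cells. A region 34.5 kb from Pon2, a paraoxonase gene (chr6:5332055-5333597), had another pattern, with 4.24 reads in formative floxed, 7.52 in DKO, 10.1 in dCD and 62.4 in WT cells (−3.74). Regions 1564 kb from the cadherin gene Cdh6 (−3.57) and 88.0 kb from Ptchd4 (−3.39) likewise were low in dCD as well. They had 8.43 and 17.3 reads in formative dCD against 47.2 and 56.6 in WT cells. At these loci WT stood apart from all 3 mutant lines.

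At the 10 highest differences under the same read minimum, both lines without MLL3 held more reads than both R1 lines in formative cells. Floxed above WT was set by the ranking, and the minimum was met through floxed cells. Only the formative DKO and dCD values lie outside that rule. A region 4.85 kb from Shc3, an adaptor gene expressed in neurons (chr13:51573847-51574757), had 42.6 reads in formative floxed, 28.4 in DKO, 5.37 in dCD and 2.91 in WT cells, a difference of 3.80. A region 1.91 kb from Elobl (chr11:88968167-88969508) had 359.7 reads in formative floxed, 197 in DKO, 26.7 in dCD and 28.3 in WT cells, a difference of 3.65. Its neighbour near 2210409E12Rik (chr11:88969877-88970802) had 144.8 reads in formative floxed, 104.3 in DKO, 9.08 in dCD and 21.6 in WT cells (2.74). An intronic region of Bicd1, a dynein adaptor gene (chr6:149470887-149472119), had 67.3, 73.1, 15.7 and 12.7 reads in the same order of lines (2.37). Others lay near Erdr1 (2.85), G530011O06Rik (2.71), Slc25a37, a mitochondrial iron importer gene (2.21), the chemokine gene Ccl28 (2.19) and Lemd2 (2.05). A further region lay 125.9 kb from Kcnj15, a potassium channel gene (2.28). At the Kcnj15 and Lemd2 regions the floxed line stood apart from DKO, with 60.2 and 73.3 reads in formative floxed, 18.9 and 37.3 in DKO, 11.8 and 21.5 in dCD and 11.9 and 15.6 in WT cells. Of 3 stretches of 50 bases at the centre of each region, all were single-copy in GRCm38 for 5 of the 10 highest and 3 of the 10 lowest regions, among them Shc3, Elobl, Pon2 and Cdh6.

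**Figure D4:**
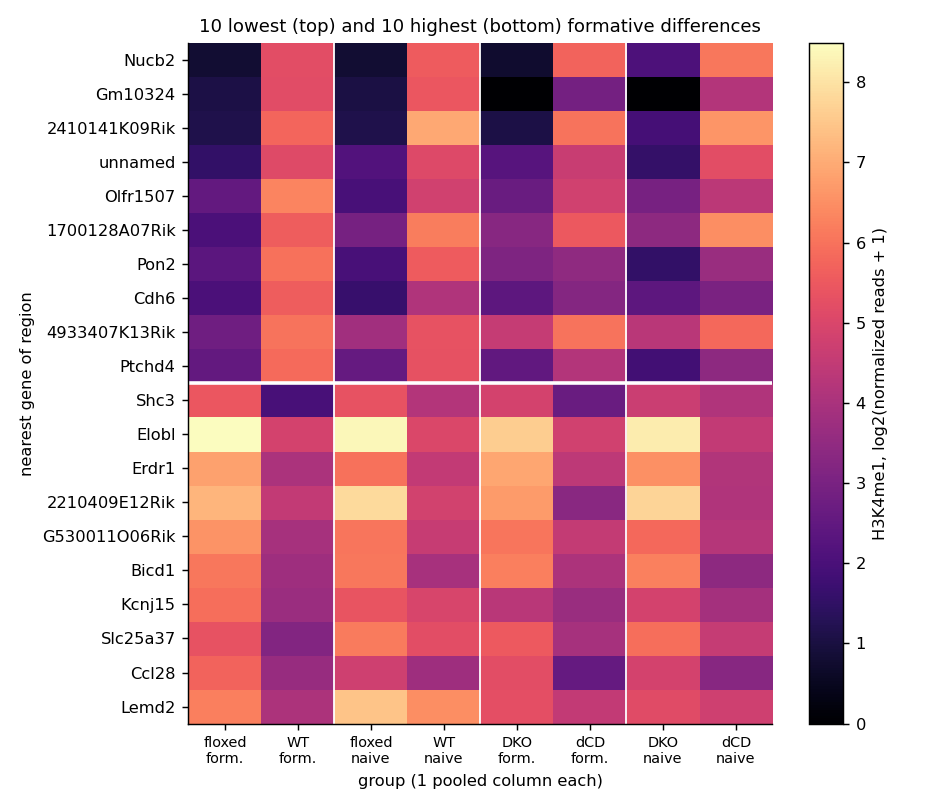
H3K4me1 at the 10 regions with the lowest (top) and the 10 with the highest (bottom) formative difference, as log2(normalized reads + 1), in 8 groups of 1 pooled column each. Only regions with at least 32 reads in formative floxed or WT cells were ranked, with at most 1 per gene. Nucb2 is near 0 in both floxed columns and in formative DKO, and somewhat higher in naive DKO (3.24 reads). Among the formative groups, Pon2, Cdh6 and Ptchd4 are high only in WT.

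Lower regions also ran together. A run was at least 4 neighbouring regions past 2-fold in the same direction, of which 86 were lower, with 530 regions, and 4 were higher, with 28. The longest lower run held 30 regions over 195.7 kb by Gm10324 on chromosome 13, with a median of −2.30 in formative and −2.41 in naive cells. The 1-Mb windows from 65 and 66 Mb of chromosome 13 had medians of −1.58 and −1.52 over 127 and 132 regions, and −1.52 and −1.58 in naive cells. Further low windows held the Mup cluster of major urinary protein genes on chromosome 4 (61 Mb, −1.59), 1700128A07Rik on chromosome 14 (107 Mb, −1.64) and Grm7, a glutamate receptor gene, on chromosome 6 (109 Mb, −1.31). A run of 10 regions at Naip6 and Naip7, inflammasome sensor genes, summed to 194.1 reads in formative floxed, 244.9 in DKO, 792 in dCD and 883 in WT cells. Several other runs were high mainly in formative WT cells. At Vwa8, 19 regions over 99.5 kb summed to 435.5 reads in formative floxed, 371.1 in DKO, 496.7 in dCD and 1283 in WT cells, and to 472.4 reads in naive floxed and 868.1 in naive WT cells. A run of 11 regions near Fscb had a median of −1.63 in formative but 0.02 in naive cells. Its reads summed to 151.6 in formative floxed, 70.0 in DKO, 140.3 in dCD and 473.9 in WT cells. In naive cells the 11 regions held few reads, with sums of 72.3 in floxed and 84.8 in WT cells. The 4 higher runs lay at Erdr1, at Ccl28 and at Entpd4, Slc25a37 and Synb. Of 2329 windows with at least 10 regions, the highest was that of Erdr1 and G530011O06Rik on Y (90 Mb), at 1.84 over 16 regions. The next 4 lay on chromosomes 12 (50 Mb, 0.36, and 49 Mb, 0.34), 16 (28 Mb, 0.28) and 17 (13 Mb, 0.27).

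By gene, regions within 50 kb were averaged into 21535 loci and counted at 1.5-fold. The median locus differed by −0.07, 1137 loci were lower (5.28%) and 149 were higher (0.692%). The lists of pluripotency and of the germ layers are short, so that the share over all loci amounts to few loci in each. Of 22 formative and primed loci, among them Fgf5 and Otx2, none passed in either direction, with a median of −0.04 (0.11 with centred columns) and a range of −0.30 to 0.30. None passed among 12 core pluripotency, 14 endoderm, 15 primitive streak and mesoderm, 14 neural, 12 trophoblast and 31 Hox loci, nor among 11 fibroblast loci that would mark feeder cells, whose medians lay between −0.06 and 0.15, those below 0 turning above it with centring. Of 22 naive pluripotency loci 2 were lower (9.09%, against 5.28% of all loci). Klf2, a Krüppel-like factor of the naive state, had 1429 reads in formative floxed and 1975 in WT cells (−0.61), on chromosome 8 with its low median. Spic, an Ets factor, had 391.6 reads in formative floxed and 534.3 in WT cells (−0.67), and −0.68 in naive cells. Among 16 loci of the H3K4 methyltransferase complexes, Setd1a, the catalytic subunit of another such complex, was higher (0.60), with 214.6 reads in floxed and 136 in WT cells. The imprinted genes Rian (0.69) and Igf2 (0.59), with 1 region each, were higher among 31, and no locus passed among 11 enhancer cofactors or 11 housekeeping genes. Of 13 germ line loci Taf7l, a testis TFIID subunit gene with 1 region on X, was lower (−0.61), and of 20 FGF, WNT and TGF-beta target loci Cdx1, a caudal homeobox gene, was higher (0.65).

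Gene families that lie in clusters or have many copies were read against the 5.28% of all loci that were lower. Of 503 olfactory and vomeronasal receptor loci, 154 were lower (30.6%) and 5 higher, with a median of −0.34 in formative and −0.14 in naive cells. These receptors of the olfactory system lie in large clusters, and 290 of the loci had a single region. Their median locus held 33.6 reads in floxed and 46.4 in WT cells, against 273.8 and 283.3 over all loci, and of 107 with at least 3 regions 12 were lower. Olfr412, with 7 regions, had 161 reads in formative floxed, 221.9 in DKO, 468.6 in dCD and 330.8 in WT cells (−0.84). In the list of the 2-cell-like state, a rare state resembling the early embryo, 6 of 12 loci were lower and 1 was higher. The median was −0.58 in formative and −0.05 in naive cells. The list has 20 members, of which these 12 were measured, 4 of them with 1 region. Their median locus held 46.4 reads in floxed and 63.3 in WT cells, and of 4 with at least 3 regions 3 were lower. Tdpoz4, a TD and POZ domain gene, had 147.1 reads in formative floxed and 399 in WT cells (−1.41), and Tcstv3 45.7 and 134.2 reads (−1.43), while Tdpoz1, with 1 region, was higher (1.22). Of 36 histocompatibility loci 6 were lower, led by H2-Bl (−1.80) and the class I gene H2-T24 (−1.32), and H2-Ea-ps (1.62) and H2-D1 (0.67) were higher. Of 84 cytochrome P450 loci 11 were lower, led by Cyp7a1, the rate-limiting enzyme of bile acid synthesis, with 1 region of 6.57 reads in floxed and 38.5 in WT cells (−2.48). Of 57 clustered protocadherin loci 6 were lower, of 39 serpin loci 3, and of 383 Zfp loci 15 lower and 3 higher. The lower share was 16.7% of histocompatibility, 13.1% of cytochrome P450, 10.5% of protocadherin, 7.69% of serpin and 3.92% of Zfp loci, so that the Zfp share was below that of all loci and the serpin share close to it.

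**Figure D5:**
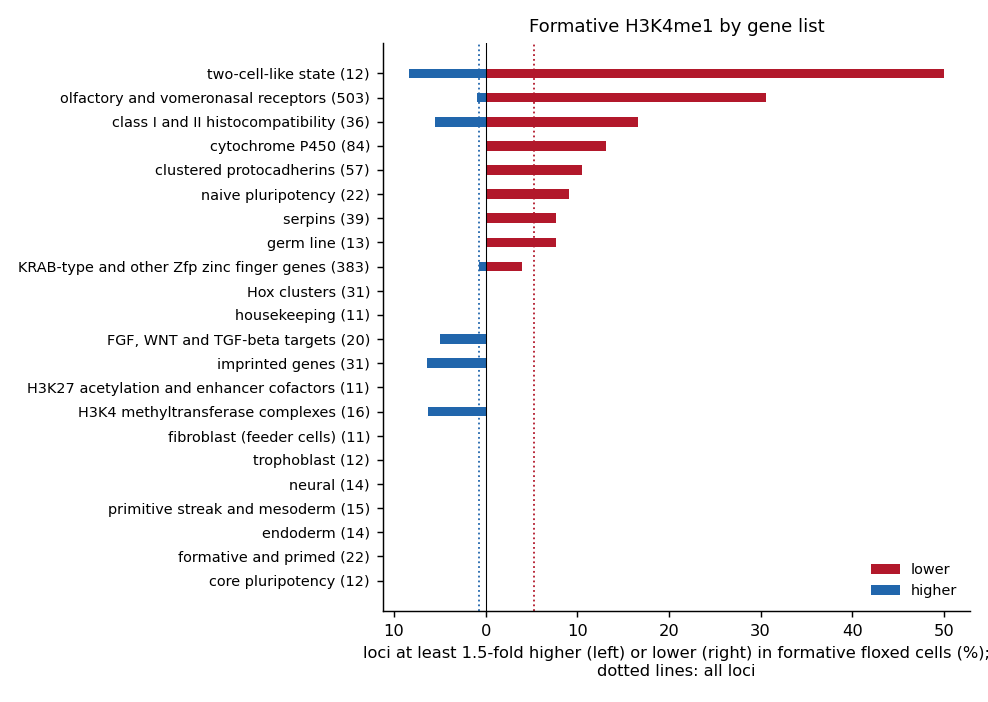
Percentage of loci in each gene list at least 1.5-fold higher (left) or lower (right) in formative floxed than in formative wild-type cells, with the number of loci in parentheses. Dotted lines mark the share over all 21535 loci, 5.28% lower and 0.692% higher. Germ layer lists have no lower locus, and 30.6% of receptor loci are lower.

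Among loci with at least 3 regions, 15630 in all, 474 were lower (3.03%) and 38 higher (0.243%). The lowest were Gm10324 (−3.12), 2410141K09Rik (−2.20), Cd209d, a C-type lectin gene on chromosome 8 (−2.15), 4921507P07Rik (−2.01), Mup16 (−1.98), 1700128A07Rik (−1.91), Gm2083 (−1.89) and Naip6 (−1.85). The highest were Erdr1 (1.80), G530011O06Rik (1.499), Synb, a syncytin gene of retroviral origin (1.33), 9630028I04Rik (1.31), Ccl28 (1.08), Elobl (1.05), Slc25a37 (1.00) and the guanylate-binding protein gene Gbp6 (0.92). Of the 3 Gbp6 regions 1 was 2-fold higher, and the locus fell to 0.14 over regions with a mean of at least 32 reads. The Synb locus held 368.7 reads in formative floxed, 241.1 in DKO, 91.0 in dCD and 149.5 in WT cells. At 9630028I04Rik the floxed line was the highest of the formative groups, with 391.3 reads in floxed, 182.8 in DKO, 180.1 in dCD and 157 in WT cells. In naive cells this locus held 701.7 reads in floxed, 218.8 in DKO, 189.3 in dCD and 431.5 in WT cells, so that WT was also high there.

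Some differences were far from those in naive cells. The lowest formative-minus-naive differences of the floxed line against WT were near Gm11757 (−3.31), Skint2 (−3.01), Gm45924 (−2.97), Casc4 (−2.80) and Pgk2 (−2.61). Near Casc4 the reads were 7.81 in formative floxed, 14.97 in DKO, 23.6 in dCD and 40.4 in WT cells, and 53.2 in naive floxed and 38.2 in naive WT cells. The formative floxed column was the lowest of these. The highest were near Shc3 (2.58), in Vps53 (2.54), in Car10 (2.34), 167.4 kb from Mir6344 (2.33) and near Ptchd4 (2.29). This Ptchd4 region (chr17:42301184-42302502) is not the one among the 10 lowest (chr17:42227071-42228880). In the Car10 intron, 89.9 reads were found in formative floxed and 56.9 in WT cells, against 14.9 in naive floxed and 50.0 in naive WT cells.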

How the data were processed

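Per the labels' protocols, nuclease-released DNA of bead-bound cells was sequenced, with yeast DNA in the stop buffer; its use in scaling is not stated. Per the submitters' processing notes, the tools were deepTools, DiffBind, SEACR, Bowtie2 and Trim Galore, on mm10, with no versions. The deposited table lists 186826 regions with 1 log2 H3K4me1 level per group, the 2 libraries of a group pooled by the authors, per the file headers. Levels were missing for 2 regions, and 271 gene names turned into dates were treated as unnamed. Another 14 columns of levels of other measures were not used. CKO in a column name stands for the floxed line, whose samples' descriptions use it.

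The levels followed log2 of 1 plus a constant times reads over squared width (offset 22.25), which was inverted to normalized reads. The added 1 shrinks differences in wide regions. No test was made, since a pooled column has no spread. Regions were counted at 2-fold, and loci (mean over regions within 50 kb of their nearest gene) at 1.5-fold. The rule for regions was checked on simulated reads, with changes larger than 2-fold placed only in regions with at least 32 reads. Detection of changes near 2-fold or in regions with fewer reads was not checked, nor was the rule for loci. The text names the 10 lowest and 10 highest regions with at least 32 reads (1 per gene), the 8 lowest and 8 highest loci with at least 3 regions, the extreme 1-Mb windows, the 5 lowest and highest differences between states, examples of the list members past 1.5-fold and the Kmt2c and Kmt2d regions. The other regions and runs, and the copy of L1, were chosen after their values were seen. CpG density, soft-masked share, motifs and 30-base sequences were read from the RefSeq GRCm38 sequence. The comparison, the lists and these rules were chosen with earlier results of these data known. Python 3.11.15, numpy 2.4.6 and pandas 2.3.3 were used. Alternatives were centring, quantile scaling, a read minimum, log2 of reads plus 1, other size rules, other locus distances and left-out chromosomes, and, added after seeing the data, chromosome 8 and the L1 regions left out.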

Additional observations from a re-analysis of the deposited data

Results flagged for a closer look

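In 10 regions with at least 32 reads, the floxed line was at least 2-fold lower than WT in formative cells and at least 2-fold higher in naive cells. The read minimum was set on the formative columns, which admitted these regions through their WT reads. Over all regions 60 went this way, and 45 were higher in formative and lower in naive floxed cells, none of them with 32 formative reads. With 1 pooled column per group the difference between the states was not tested. The formative difference minus the naive one was -2.53 in Trpm3, -2.52 in Vwa8, -2.38 in Adgrl3, -2.31 in Esrrg, -2.09 in Pdzrn3 and -2.05 in Grin2b. In regions between genes it was -2.61 at 82 kb from Crisp1, -2.57 at 875.8 kb from Csmd3, -2.12 at 216.3 kb from Klf6 and -2.11 near Cd36. In the Trpm3 region, an intron of a cation channel gene, reads were 24.3 in formative floxed, 14.6 in DKO, 25.3 in dCD and 65.5 in WT cells, and 24.9 in naive floxed and 11.03 in naive WT cells. The region near Crisp1 had 15.5 reads in formative floxed and 39.9 in WT cells, and 48.4 in naive floxed and 19.2 in naive WT cells.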

How the results depend on the processing

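No paired analysis was possible because each group has 1 pooled column, and for the same reason no library could be left out. Main values were 7148 lower and 982 higher regions, 1137 lower and 149 higher loci, and 1959 and 100 regions lower and higher in both states. With columns centred these were 4740, 1963, 671, 357, 1277 and 196, with medians of 0.0794 for introns, 0.0343 for intergenic and 0.208 for promoter regions, −0.198 for chromosome 8 and 0.101 for regions lower in both naive mutants. Quantile scaling gave 1669 higher regions, 696 lower and 299 higher loci, 188 regions higher in both states, and medians of 0.0537, 0.0145, 0.185, −0.217 and 0.0768 in that order; its 4844 lower regions stayed within 1.5 times. The sign of the intron, intergenic and naive-mutant medians therefore follows the scaling, while chromosome 8 was below 0 under each. A mean of at least 32 reads left 1213 lower and 229 higher regions, 521 lower loci and 351 regions lower in both states, with medians of −0.0325, −0.0574 and 0.0718 for introns, intergenic and promoter regions and −0.312 for chromosome 8. Size rules of 1.5-fold and 1.3-fold gave 24276 lower and 6562 higher regions, 2772 and 562 loci, and 8474 and 897 regions lower and higher in both states. The settings without chromosome 8 and without the L1 regions were chosen after seeing the data. Without chromosome 8 the intergenic, intron, promoter and naive-mutant medians were −0.0972, −0.0570, 0.0713 and −0.0361. Without chromosomes 8, 14, 17, X and Y, 65 regions were higher in both states. Without the L1 regions the intergenic median was −0.113. None of the 10 lowest and 10 highest regions or the 8 lowest and 8 highest loci changed sign under an alternative that gave it a value. They were picked as extremes, so that the 0.15 added by centring could not turn their sign. Sizes did move: with the read minimum Gbp6 fell from 0.918 to 0.135 and Mup16 went from −1.98 to −1.05, while Elobl rose from 1.05 to 1.66. Apart from the shift that centring adds, the cause of these moves was not tested. Regions with few reads limit the counts: 4688 of the lower regions had under 32 reads in both columns.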
